A study of Mus musculus with 203 samples.

Results

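The potassium channel genes were taken as all rows of the count table whose symbol is Kcn followed by a letter and ending in a digit or a digit and 1 letter, without the antisense transcript Kcnq1ot1. The rule gave 95 members of 24029 genes, of which 93 are protein coding and 2 are noncoding antisense genes of Kcnmb4. They were read in single neurons of the nucleus ambiguus, the brainstem column that holds vagal motor neurons of the heart, airways and larynx. Wild-type mice (C57BL/6 in the labels, C57BL/6NCrl in the methods of the study) received the fluorescent retrograde tracer cholera toxin B on postnatal day 1, either in the pericardial space or, in other mice, in the cricothyroid muscle of the larynx. Labelled somata were aspirated from acute slices on postnatal days 2 to 4 and sequenced with the full-length protocol Smart-seq2. The deposited annotation assigned the neurons labelled from the heart to the types ACP (53 neurons) and ACV (98 neurons), named for a cardiopulmonary and a cardiovascular role, and those labelled from the larynx to the third (52 neurons). ACP and ACV came from the authors' clustering of these same counts, so that differences between them describe the clusters, whereas laryngeal and heart neurons were separated by the site of the tracer. The design asks which potassium channel genes differ between motor neurons of different targets.

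No animal was named for any neuron and no neuron is a replicate of a type. Each type was therefore treated as 1 sample, no p-value or standard error was made, and differences were described by size. The level of a gene is its reads per 10000 reads outside Rn45s, the ribosomal RNA precursor, in each neuron, and levels are given as mean ± SD over the 53 ACP, 98 ACV and 52 laryngeal neurons. A member was compared when the mean of its detected shares in the 3 types was at least 20%, which 54 members met and 41 did not, and a difference was counted when 2 mean levels differed by at least 2-fold. Intervals beside detected shares are exact Clopper-Pearson 95% intervals that treat neurons as independent draws, and they do not cover differences between animals. Reads carried no molecular identifiers, so that Poisson intervals of summed reads count copies of 1 molecule as separate reads.

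The neurons held a median of 1115375 counts outside Rn45s in ACP, 1120512 in ACV and 560892 in laryngeal neurons, and Rn45s took on average 37%, 38.5% and 58.2% of all counts. The vesicular acetylcholine transporter gene Slc18a3 was detected in 100% of neurons of every type, and the laryngeal markers Calca, Calcb and Dlk1 summed to 34.6 ± 41.9 in laryngeal neurons against 1.31 ± 2.64 in ACP and 0.721 ± 1.37 in ACV neurons. Apoe, a transcript of glia, exceeded 1800 counts in 11 ACP, 28 ACV and 0 laryngeal neurons, although the methods of the study name that number as the limit for removing neurons. Hemoglobin genes had no read in any neuron.

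Potassium channels let potassium leave or, at negative potentials, enter the cell, and thereby set the resting potential, shape the action potential and time repetitive firing. Voltage-gated subunits (Kv) open on depolarization, calcium- and sodium-activated subunits couple firing to ion entry, inward rectifiers (Kir) hold the membrane near the potassium equilibrium potential, and two-pore subunits carry leak current. Auxiliary subunits bind these pore-forming subunits and change their gating or delivery to the membrane. In motor neurons, Kv1 and Kv3 channels limit spike number and width, and A-type Kv4 channels and small-conductance SK channels slow repetitive firing.

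Potassium channel pores carry a signature of glycine, tyrosine or phenylalanine, and glycine in the selectivity filter. The coding sequence around it is shown for the members on which the comparisons below turn, to place closely related genes with opposite distributions next to each other. Each window is 30 bases of GENCODE vM21 on GRCm38 (mm10), written 5′ to 3′ on the coding strand, and the capitals mark the 3 codons of the signature. The Kv1 windows lie at chr6:126642222-126642251, minus strand (Kcna1), chr3:107105215-107105244, plus strand (Kcna2), and chr6:126533739-126533768, minus strand (Kcna5). The Kv3 window lies at chr3:107447793-107447822, minus strand (Kcnc4), and those of the ether-a-go-go genes at chr1:192337745-192337774, plus strand (Kcnh1) and chr12:75087460-75087489, minus strand (Kcnh5). That of the inward rectifier Kcnj3 lies at chr2:55437618-55437647, plus strand, and that of the calcium-activated Kcnma1 at chr14:23528407-23528436, minus strand. The window of the second pore loop of the two-pore subunit Kcnk3 lies at chr5:30622193-30622222, plus strand. Each of these lies within 1 coding exon.
Kcna1: tccatgaccactgtgGGATACGGTgacatg
Kcna2: tccatgacaactgtaGGCTATGGAgacatg
Kcna5: actatgaccactgtaGGCTACGGGgacatg
Kcnc4: accatgacaacgcttGGCTATGGGgacatg
Kcnh1: agtctcaccagtgtgGGCTTTGGTaacatt
Kcnh5: agccttacaaccataGGATTTGGAaacata
Kcnj3: accgaggccaccatcGGCTATGGCtaccgc
Kcnma1: acaatgtctacagtgGGTTATGGGgacgtt
Kcnk3, second pore loop: accctcaccaccatcGGCTTCGGCgactat

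Against the Kcna1 window, 25 of 30 bases were the same in Kcna2, 25 in Kcna5, 22 in Kcnc4, 20 in Kcnma1, 19 in Kcnh1, 17 in Kcnh5 and 16 in Kcnj3. Over whole transcripts, only the pairs Kcna5 with Kcna6 and Kcnj15 with Kcnj16 shared a run of at least the read length of 75 bases (91 and 78 bases). The values of these 4 genes are uncertain to the extent that reads fell on those runs. The sources used here do not state whether counting used strand, and antisense genes overlap 40.4% of the exon length of Kcna6, 31.1% of that of Kcnj3 and 49.3% of that of Kcnmb4. Reads of these members and of their antisense partners therefore cannot be told apart.

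Of the 95 members, 88 had a read in at least 1 neuron and 22 had reads in 50% or more of every type's neurons. Kcna10, Kcne1, Kcng3, Kcnj1, Kcnk15, Kcnk18 and the antisense gene Kcnmb4os1 had no read in any neuron. A further 18 members were detected in under 10% of neurons of every type. A neuron had reads of a median of 32 members in ACP, 27 in ACV and 33.5 in laryngeal neurons, and after thinning each neuron to 200000 counts outside Rn45s the expected medians were 29.5, 22.3 and 31.8, with 3 shallower laryngeal neurons left out.

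The summed level of all members was highest in laryngeal neurons, at 26.1 ± 10.9 reads per 10000 (lowest 5.53, median 23.6, highest 59). ACP neurons followed at 19.3 ± 9.73 (7.82, 16.1 and 55.8), and ACV neurons were lowest at 13.6 ± 4.98 (3.09, 13.2 and 27.9). The ranges of the 3 types overlapped, and the mean of ACP was 1.42 times that of ACV and 0.741 times that of laryngeal neurons, while ACV stood at 0.522 times the laryngeal mean. In a random pair of neurons, the ACP neuron had the higher sum in 68.1% of pairs with an ACV neuron, and the ACV neuron exceeded the laryngeal neuron in 13.9% of pairs. With Rn45s kept in the totals, the median of all genes moved from -0.02 to 0.59 (log2, ACP over Larynx) and from -0.03 to 0.52 (ACV over Larynx), and the summed ratio of ACP over laryngeal neurons was 1.08. Among neurons with at most 50% of counts on Rn45s (45 ACP, 76 ACV and 15 laryngeal), a choice made after seeing the data, the ratios were 1.47 (ACP over ACV), 0.737 (ACP over laryngeal) and 0.503 (ACV over laryngeal).

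**Figure D1:**
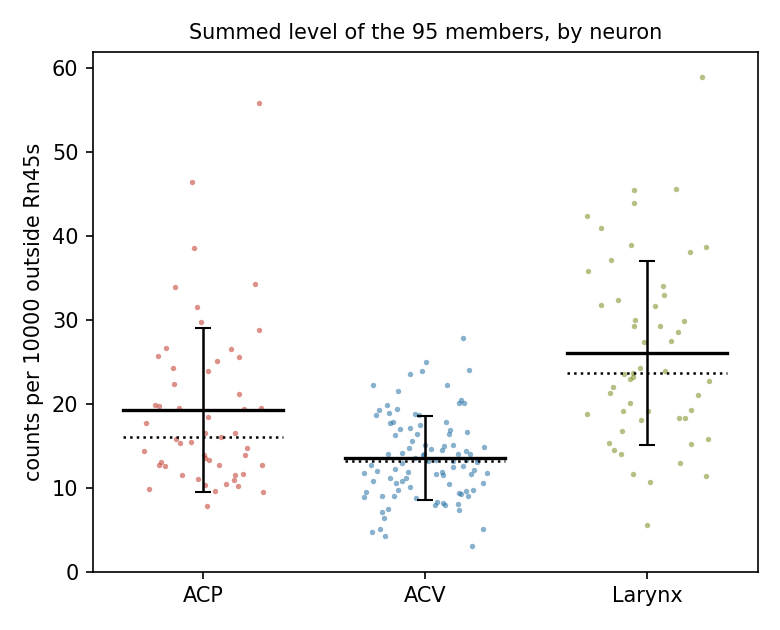
Summed level of the 95 potassium channel genes in every neuron, in counts per 10000 counts outside Rn45s (vertical axis), by type (horizontal axis; 53 ACP, 98 ACV and 52 laryngeal neurons). Points are neurons, solid lines means with error bars of 1 SD, and dotted lines medians; the laryngeal mean of 26.1 lies above those of ACP (19.3) and ACV (13.6), with overlapping ranges.

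Of the 54 compared members, the highest mean level was in laryngeal neurons for 34, in ACP for 13 and in ACV for 7. The lowest was in ACV for 35. The same counts were not made over all genes. They describe the members only and do not show whether the members differ from other genes in this. Between ACP and ACV, 13 of 54 members were at least 2-fold higher in ACP (24.1%), against 6.92% of the 11197 genes that met the same filter, and 0 of 54 were 2-fold higher in ACV, against 4.89% of genes. That 0 depended on the neurons used, since 4 members of 54 were 2-fold higher in ACV without the highest neuron of each type (against 6.05% of genes), 4 of 51 among neurons with at most 900 Apoe counts (against 8.41%) and 2 of 52 with at most 1800 (against 5.01%). Between ACP and laryngeal neurons, 8 members were 2-fold higher in ACP (14.8%, against 7.32% of genes) and 9 in laryngeal neurons (16.7%, against 9.04%). Between ACV and laryngeal neurons, 25 members were 2-fold higher in laryngeal neurons (46.3%, against 11.4% of genes) and 2 in ACV (3.70%, against 6.84%).

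The median log2 ratio over the 54 members was 0.56 for ACP over ACV, -0.39 for ACP over laryngeal and -0.89 for ACV over laryngeal neurons, beside 0.01, -0.02 and -0.03 over all genes compared. The 3 comparisons share their neurons and are not independent. Totals that included Rn45s gave 13 members higher in ACP and 3 in laryngeal neurons (against 23.4% and 2.81% of genes), and 7 higher in ACV and 13 in laryngeal neurons (against 22% and 4.85%). Relative to the median of all genes, the median of the members under those totals was 0.43 for ACP over ACV, -0.44 for ACP over laryngeal and -0.77 for ACV over laryngeal neurons.

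**Figure D2:**
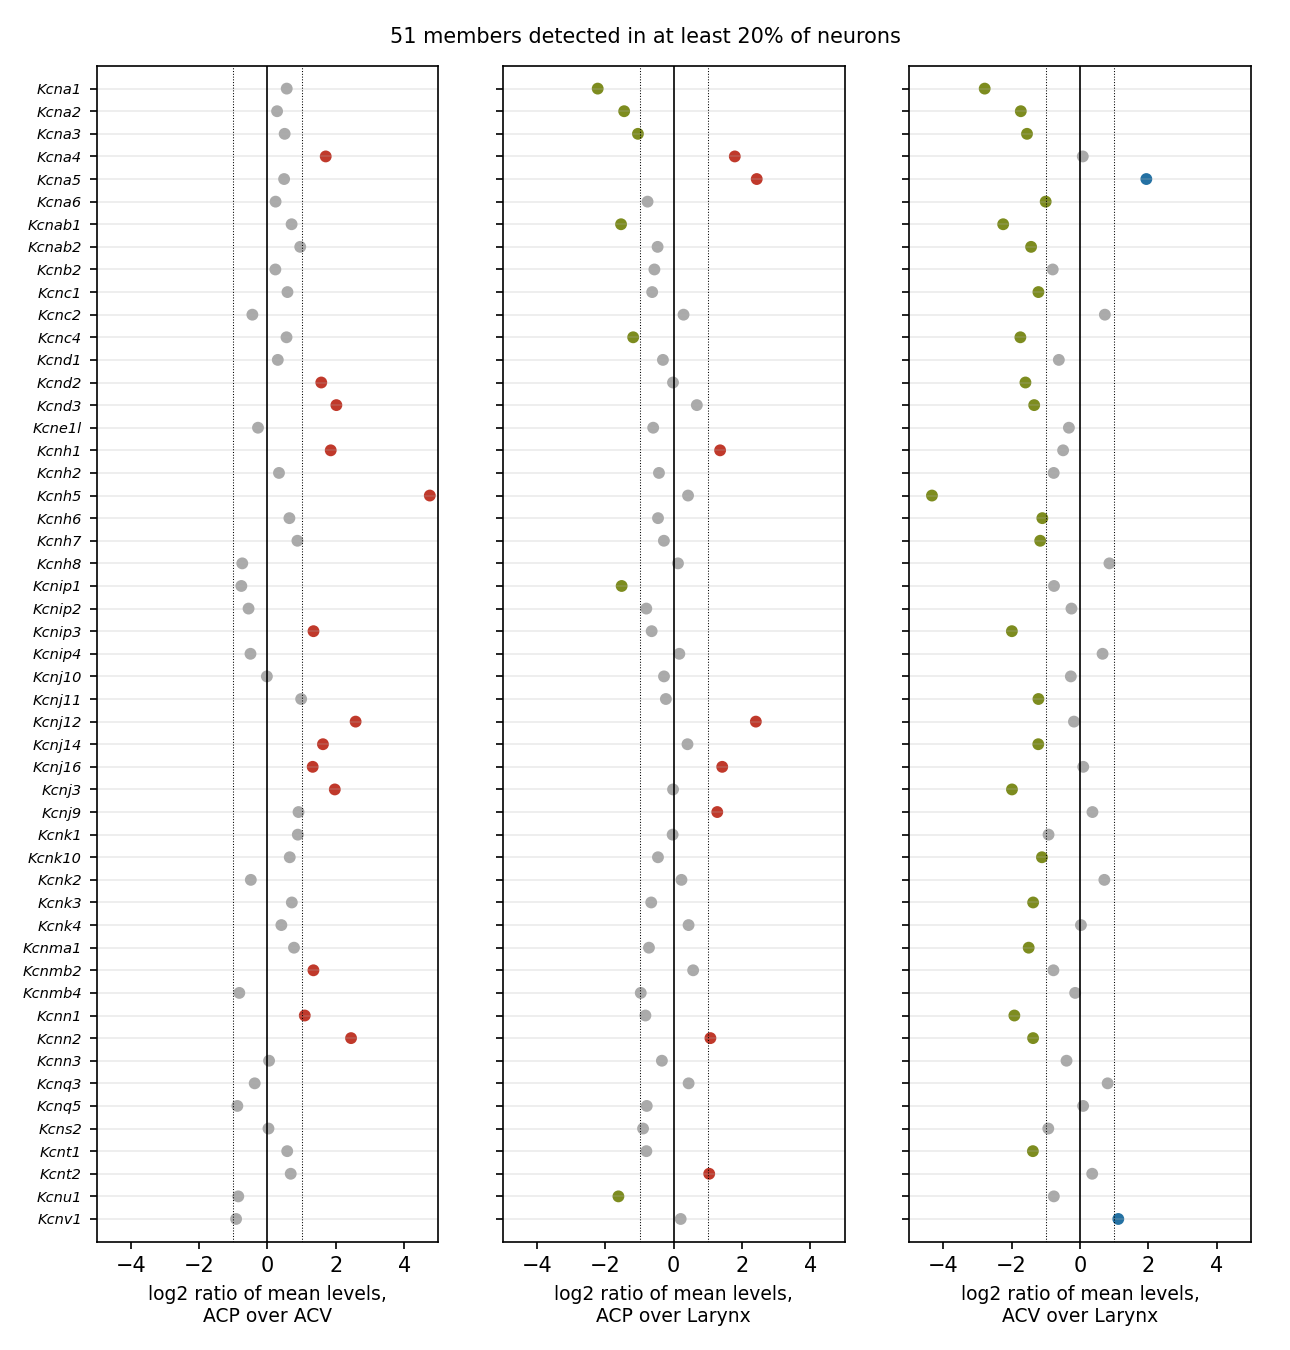
Log2 ratio of mean levels (horizontal axes) for 51 of the 54 compared members (vertical axis, by symbol) in ACP over ACV, ACP over laryngeal and ACV over laryngeal neurons. Dotted lines mark 2-fold and coloured points lie beyond it, in the colour of the type with the higher level (red ACP, blue ACV, green laryngeal); 13, 15 and 25 points are coloured.

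By subfamily, the mean summed level was highest in laryngeal neurons for 13 of 20 subfamilies, in ACP for 6 and in ACV for 1, and it was lowest in ACV for 16. Kcnj was among the 6 highest in ACP neurons, Kcna and Kcnc among the 13 highest in laryngeal neurons, and Kcnd among the 16 lowest in ACV neurons. These traits were not particular to them, since Kcnab was 3.51-fold higher in laryngeal than in ACV neurons, beside 2.53-fold for Kcna. Kcnf and Kcng, without a compared member, had ratios of 19.1 (ACP over ACV) and 10.8 (laryngeal over ACV). Per kilobase of exon, the scale on which different genes can be compared, the leading members differed between types. In ACP neurons these were Kcnj12 (0.329 reads per 10000 and kilobase), Kcnk4 (0.244) and Kcnd2 (0.237). In ACV neurons they were Kcnip1 (0.355), Kcnip4 (0.299) and Kcnk4 (0.184), and in laryngeal neurons Kcnip1 (0.601), Kcnc4 (0.487) and Kcnk3 (0.347). The order of neighbours in these lists lies well within the SD over neurons.

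**Figure D3:**
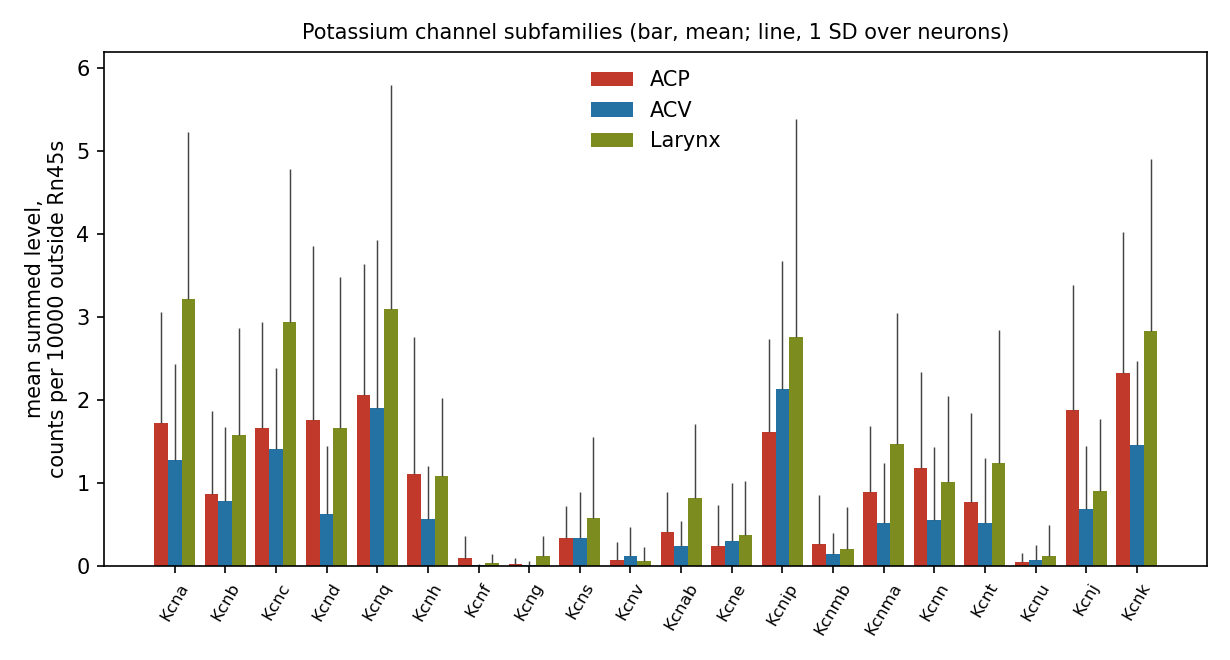
Mean summed level of each of the 20 subfamilies (horizontal axis) in ACP, ACV and laryngeal neurons, in counts per 10000 counts outside Rn45s (vertical axis, from 0). Bars are means over neurons and lines reach 1 SD above them; Kcnj is highest in ACP (1.88), Kcna (3.21) and Kcnc (2.93) in laryngeal neurons, and Kcnd is lowest in ACV (0.625).

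Kv1 subunits, the low-threshold delayed rectifiers of axons, divided into genes with high levels in laryngeal neurons and genes with high levels in heart neurons. Of 6 compared Kcna members, 4 were at least 2-fold higher in laryngeal than in ACV neurons and 3 higher than in ACP (against 11.4% and 9.04% of all compared genes). In the other direction, 2 were higher in ACP than in laryngeal neurons and 1 higher in ACV (against 7.32% and 6.84%). Kcna1 (Kv1.1) stood at 0.138 ± 0.502 in ACP, 0.0936 ± 0.292 in ACV and 0.646 ± 0.789 in laryngeal neurons. From a lowest value of 0 in each type, the single neurons reached 3.47, 1.53 and 3.3 in the same order, with medians at 0, 0 and 0.186. It was detected in 19 of 53 ACP neurons (35.8%, 23.1 to 50.2), 26 of 98 ACV neurons (26.5%, 18.1 to 36.4) and 39 of 52 laryngeal neurons (75%, 61.1 to 86), so that most heart neurons had no read and most laryngeal neurons had at least 1. The laryngeal mean was 4.67 times the ACP and 6.9 times the ACV level, and 1 neuron held 47.4% of the summed ACP level. Without the highest neuron of each type, the ratio of laryngeal over ACP neurons was 8.01. After thinning, the expected shares of neurons with a read were 26.2%, 20.5% and 71.1% in ACP, ACV and laryngeal neurons. The study itself lists Kcna1 as enriched in laryngeal neurons from these same neurons, so that its direction is no independent evidence.

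Kcna2 (Kv1.2), which assembles with Kv1.1, was at 0.344 ± 0.494 in ACP, 0.283 ± 0.553 in ACV and 0.941 ± 1.14 in laryngeal neurons. Medians stood at 0.179, 0.0635 and 0.462, and the values of single neurons ran from 0 to 2.07, 3.4 and 4.95. Unlike Kcna1 it was detected in most neurons of each type, and laryngeal neurons differed in level by 2.73-fold from ACP and 3.32-fold from ACV. Reads of both Kcna1 and Kcna2 were found together in 15 of 53 ACP, 21 of 98 ACV and 35 of 52 laryngeal neurons, where the product of the single shares gives 13.6, 19.1 and 31.5.

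Kcna5 (Kv1.5), a delayed rectifier known from heart muscle, had the opposite distribution, at 0.155 ± 0.263 in ACP, 0.111 ± 0.181 in ACV and 0.0288 ± 0.114 in laryngeal neurons. Single neurons ranged from 0 to 1.44 (ACP), 0.912 (ACV) and 0.655 (laryngeal), and the medians lay at 0.0538, 0 and 0. It had reads in 30 of 53 ACP neurons (56.6%, 42.3 to 70.2), 48 of 98 ACV neurons (49%, 38.7 to 59.3) and 6 of 52 laryngeal neurons (11.5%, 4.35 to 23.4). ACP was 5.38 times and ACV 3.84 times the laryngeal mean, and ACP and ACV differed by 1.4-fold, within the limit. A single neuron held 43.7% of the laryngeal sum, and leaving out the highest neuron of each type gave ratios of 7.88 and 6.19. The summed reads gave 0.144 (0.135 to 0.153) in ACP, 0.126 (0.12 to 0.133) in ACV and 0.024 (0.0189 to 0.0301) in laryngeal neurons per 10000. These are exact Poisson 95% intervals, which take reads as independent and leave out amplification and differences between neurons. The study itself lists Kcna5 from these neurons, so that its direction is no independent evidence.

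Kcna4 (Kv1.4), an inactivating subunit, had its highest mean in ACP, at 0.222 ± 0.402 in ACP, 0.068 ± 0.179 in ACV and 0.0642 ± 0.196 in laryngeal neurons. The ACP neuron had the higher level in 66.1% of pairs with an ACV neuron and 68.6% of pairs with a laryngeal neuron. The highest neuron reached 2.41 in ACP, 1.15 in ACV and 1.27 in laryngeal neurons, the lowest was at 0 in each, and the medians were at 0.0303, 0 and 0. The ACP mean was 3.26 times the ACV and 3.45 times the laryngeal mean, and 32 of 53 ACP, 33 of 98 ACV and 14 of 52 laryngeal neurons had a read. Kcna3 (Kv1.3) was at 0.142 ± 0.267 in ACP, 0.1 ± 0.274 in ACV and 0.294 ± 0.483 in laryngeal neurons, and its laryngeal level was 2.93 times that of ACV and 2.07 times that of ACP. Kcna6 (Kv1.6) had the most reads of the subfamily, at 0.724 ± 0.829 in ACP, 0.614 ± 0.873 in ACV and 1.23 ± 1.24 in laryngeal neurons, and lay just past the limit in laryngeal over ACV neurons (2-fold). The cytoplasmic beta subunits that bind Kv1 followed the laryngeal side. Kcnab1 was at 0.137 ± 0.302 in ACP, 0.0842 ± 0.224 in ACV and 0.4 ± 0.708 in laryngeal neurons. Values started at 0 in every type and went up to 1.51, 1.09 and 3.36, around medians at 0, 0 and 0.0252. The laryngeal mean was 2.91 times the ACP and 4.75 times the ACV level. Kcnab2 was at 0.255 ± 0.35 in ACP, 0.131 ± 0.173 in ACV and 0.353 ± 0.448 in laryngeal neurons, past the limit only in laryngeal over ACV neurons (2.69-fold).

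Kv3 subunits, whose fast closing allows high-frequency firing, were highest in laryngeal neurons in sum (1.66 ± 1.27 in ACP, 1.41 ± 0.976 in ACV and 2.93 ± 1.85 in laryngeal neurons). Kcnc4 (Kv3.4) was at 0.785 ± 0.738 in ACP, 0.534 ± 0.561 in ACV and 1.79 ± 1.23 in laryngeal neurons. From a lowest value of 0 in each type, the single neurons reached 3.27, 2.88 and 5.61 in the same order, with medians at 0.565, 0.355 and 1.58. Nearly every laryngeal and ACP neuron had a read (49 of 53 ACP, 81 of 98 ACV and 49 of 52 laryngeal neurons). The laryngeal mean was 2.28 times the ACP and 3.35 times the ACV level. Kcnc1 (Kv3.1) was at 0.434 ± 0.822 in ACP, 0.289 ± 0.414 in ACV and 0.671 ± 0.752 in laryngeal neurons and passed the limit only in laryngeal over ACV neurons (2.32-fold). Kcnc2 (Kv3.2) differed from Kcnc1 and Kcnc4 in order, at 0.408 ± 0.535 in ACP, 0.554 ± 0.641 in ACV and 0.335 ± 0.662 in laryngeal neurons, with its highest mean in ACV neurons and all ratios within 2-fold.

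Kv2 subunits, the slow delayed rectifiers of the soma, include Kcnb2 (Kv2.2), which was at 0.34 ± 0.532 in ACP, 0.289 ± 0.729 in ACV and 0.503 ± 0.628 in laryngeal neurons and stayed within 2-fold in each comparison. Of the Kv7 genes, which carry the subthreshold M-current, Kcnq3 was at 0.157 ± 0.338 in ACP, 0.203 ± 0.573 in ACV and 0.116 ± 0.184 in laryngeal neurons, and Kcnq5 at 0.072 ± 0.242 in ACP, 0.132 ± 0.292 in ACV and 0.124 ± 0.271 in laryngeal neurons. Neither passed 2-fold.

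Kv4 subunits, which carry the somatodendritic A-type current, had close means in ACP and laryngeal neurons and a lower one in ACV neurons (summed level 1.76 ± 2.1 in ACP, 0.625 ± 0.822 in ACV and 1.67 ± 1.81 in laryngeal neurons). Kcnd2 (Kv4.2) was at 1.22 ± 1.88 in ACP, 0.411 ± 0.758 in ACV and 1.24 ± 1.64 in laryngeal neurons. Medians stood at 0.643, 0.115 and 0.973, and the values of single neurons ran from 0 to 11.3, 5.46 and 10.3. ACP exceeded ACV by 2.98-fold and laryngeal neurons exceeded ACV by 3.02-fold, and ACP stood at 0.985 times the laryngeal mean. The ranges overlapped, and the ACP neuron had the higher level in 72.7% of pairs with an ACV neuron. ACP and ACV were clustered from these same counts, so that the direction of Kcnd2 between them is no independent evidence. Kcnd3 (Kv4.3) was at 0.387 ± 0.594 in ACP, 0.0957 ± 0.191 in ACV and 0.242 ± 0.534 in laryngeal neurons. Single neurons ranged from 0 to 3.2 (ACP), 0.951 (ACV) and 2.82 (laryngeal), and the medians lay at 0.141, 0 and 0.0143. It was 4.05-fold higher in ACP and 2.53-fold higher in laryngeal than in ACV neurons. Kcnd1 (Kv4.1) was at 0.147 ± 0.498 in ACP, 0.119 ± 0.308 in ACV and 0.183 ± 0.367 in laryngeal neurons, within 2-fold throughout.

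The KChIP genes, whose calcium-binding products assemble with Kv4, did not share the low levels of Kcnd in ACV neurons. The summed Kcnip level was 1.61 ± 1.12 in ACP, 2.13 ± 1.55 in ACV and 2.76 ± 2.62 in laryngeal neurons, and Kcnip took 8.35%, 15.6% and 10.6% of the whole potassium channel level in ACP, ACV and laryngeal neurons. Kcnip4 had its highest mean in ACV, at 0.685 ± 0.853 in ACP, 0.966 ± 0.804 in ACV and 0.611 ± 0.856 in laryngeal neurons. The highest neuron reached 4.67 in ACP, 3.11 in ACV and 4.04 in laryngeal neurons, the lowest was at 0 in each, and the medians were at 0.448, 0.915 and 0.293. All its ratios were within 2-fold. Kcnip1 was at 0.519 ± 0.559 in ACP, 0.88 ± 1.32 in ACV and 1.49 ± 1.9 in laryngeal neurons. Values started at 0 in every type and went up to 2.06, 7.03 and 8.02, around medians at 0.419, 0.515 and 1.01. It was 2.87-fold higher in laryngeal than in ACP neurons. Kcnip3 alone of the 4 was lowest in ACV, at 0.299 ± 0.621 in ACP, 0.117 ± 0.295 in ACV and 0.467 ± 0.966 in laryngeal neurons, so that ACP was 2.54-fold and laryngeal 3.98-fold above ACV. Its median was 0 in every type, with reads in 19 of 53 ACP, 29 of 98 ACV and 24 of 52 laryngeal neurons. Kcnd2 and Kcnip4 were found together in 38 of 53 ACP, 55 of 98 ACV and 31 of 52 laryngeal neurons, against 37.9, 53.7 and 31.2 from the single shares.

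Among the ether-a-go-go genes, Kcnh5 (Eag2) had the largest ratio of any compared member. It was at 0.179 ± 0.744 in ACP, 0.00665 ± 0.0541 in ACV and 0.134 ± 0.27 in laryngeal neurons. From a lowest value of 0 in each type, the single neurons reached 5.26, 0.531 and 1.21 in the same order, with medians at 0 in all 3 types. It was detected in 12 of 53 ACP neurons (22.6%, 12.3 to 36.2), 5 of 98 ACV neurons (5.1%, 1.68 to 11.5) and 22 of 52 laryngeal neurons (42.3%, 28.7 to 56.8). ACV neurons had 63 reads in all, against 962 in ACP and 401 in laryngeal neurons, and the means were 26.9-fold (ACP) and 20.1-fold (laryngeal) above ACV. The sizes rest on few neurons, since 1 ACV neuron held 81.6% of the ACV sum and 1 ACP neuron 55.5% of the ACP sum. Without the highest neuron of each type the ratios were 65.4 and 90.9. More laryngeal than ACP neurons had a read, although the ACP mean was the higher. Kcnh1 (Eag1) was at 0.324 ± 0.983 in ACP, 0.0898 ± 0.305 in ACV and 0.126 ± 0.25 in laryngeal neurons. Medians stood at 0 in all 3 types, and the values of single neurons ran from 0 to 6.28, 2.79 and 0.991. The ACP mean was 3.61 times that of ACV and 2.56 times that of laryngeal neurons. Its detected shares lay close together (19 of 53 ACP, 31 of 98 ACV and 15 of 52 laryngeal neurons), and 1 neuron held 36.6% of the ACP sum. Without the highest neurons the ratio of ACP over laryngeal neurons was 1.91. Of the Erg genes, Kcnh2 had the most reads (0.306 ± 0.467 in ACP, 0.242 ± 0.511 in ACV and 0.413 ± 0.541 in laryngeal neurons) and stayed within 2-fold. Kcnh7 was at 0.0679 ± 0.208 in ACP, 0.037 ± 0.128 in ACV and 0.0829 ± 0.445 in laryngeal neurons. Here 1 neuron held 74.4% of the laryngeal sum, and the ratio of laryngeal over ACV neurons went from 2.24 to 0.766 without the highest neurons.

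**Figure D4:**
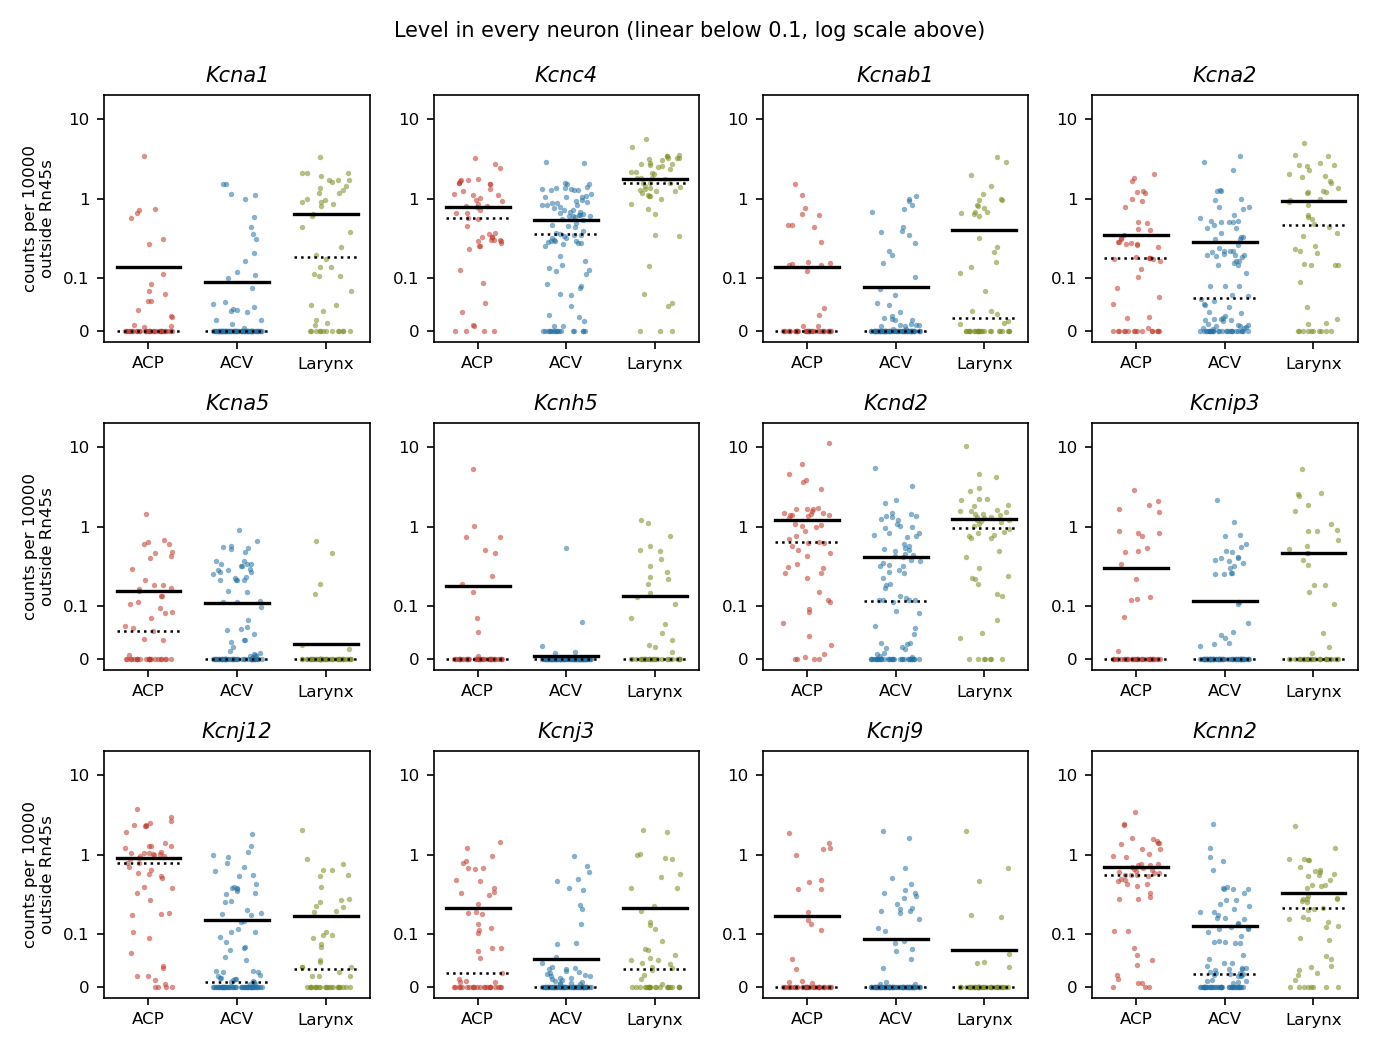
Level of 12 members in every neuron, in counts per 10000 counts outside Rn45s (vertical axes, linear below 0.1 and logarithmic above), by type (horizontal axes). Points are neurons, solid lines means and dotted lines medians; Kcna1, Kcnc4, Kcnab1 and Kcna2 are highest in laryngeal neurons, Kcnj12 and Kcnn2 in ACP neurons, Kcna5 is lowest in laryngeal neurons, and Kcnh5, Kcnd2 and Kcnj3 are lowest in ACV neurons.

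The silent subunits, which form channels only with Kv2 partners, were rare: 2 of 10 members met the filter. Kcns2 (Kv9.2) was at 0.286 ± 0.379 in ACP, 0.28 ± 0.501 in ACV and 0.532 ± 0.965 in laryngeal neurons, within 2-fold throughout. Kcnv1 (Kv8.1) was at 0.0626 ± 0.204 in ACP, 0.118 ± 0.354 in ACV and 0.0544 ± 0.172 in laryngeal neurons, and with Kcna5 it was the other member at least 2-fold higher in ACV than in laryngeal neurons (2.17-fold). Its ratio was short of 2-fold in 5 of 11 other settings, which gave 1.64 to 7.7. Its reads came from 12 of 53 ACP, 26 of 98 ACV and 11 of 52 laryngeal neurons, shares whose intervals overlapped. Kcnf1 and Kcng1, the leading members of their subfamilies, had reads in 12 of 53 ACP, 9 of 98 ACV and 8 of 52 laryngeal neurons and in 2 of 53 ACP, 4 of 98 ACV and 11 of 52 laryngeal neurons.

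Of the calcium-activated channels, the large-conductance BK subunit Kcnma1 was at 0.891 ± 0.791 in ACP, 0.52 ± 0.713 in ACV and 1.47 ± 1.58 in laryngeal neurons. Single neurons ranged from 0 to 3.41 (ACP), 3.33 (ACV) and 6.79 (laryngeal), and the medians lay at 0.7, 0.296 and 0.94. Its laryngeal mean was 2.83-fold above ACV, and 1.71-fold separated ACP from ACV, within the limit. Kcnmb2, a beta subunit that inactivates BK, was at 0.241 ± 0.587 in ACP, 0.0948 ± 0.233 in ACV and 0.162 ± 0.5 in laryngeal neurons and was 2.54-fold higher in ACP than in ACV neurons. Kcnmb4 was detected in 18 of 53 ACP, 38 of 98 ACV and 16 of 52 laryngeal neurons but at levels of 0.0109 ± 0.0246 in ACP, 0.0193 ± 0.0442 in ACV and 0.0213 ± 0.0508 in laryngeal neurons.

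The small-conductance SK genes, which carry part of the current that follows a spike, included one of the clearest differences between ACP and ACV, that of Kcnn2. The study itself lists Kcnn2 as enriched in ACP from these same neurons, so that its direction is no independent evidence. The study also marks Kcnn2 as not expressed in laryngeal neurons, without a limit given beside the mark. In the counts used here, 44 of 52 laryngeal neurons had a read. Kcnn2 (SK2) was at 0.696 ± 0.683 in ACP, 0.128 ± 0.305 in ACV and 0.331 ± 0.403 in laryngeal neurons. The highest neuron reached 3.41 in ACP, 2.39 in ACV and 2.27 in laryngeal neurons, the lowest was at 0 in each, and the medians were at 0.556, 0.0253 and 0.212. Reads were found in 50 of 53 ACP neurons (94.3%, 84.3 to 98.8), 59 of 98 ACV neurons (60.2%, 49.8 to 69.96) and 44 of 52 laryngeal neurons (84.6%, 71.9 to 93.1). The ACP mean was 5.45 times the ACV and 2.1 times the laryngeal mean, with laryngeal neurons 2.59-fold above ACV. The ranges overlapped, and in 84.1% of pairs the ACP neuron had the higher level than the ACV neuron. The summed reads gave 0.712 (0.692 to 0.733) in ACP, 0.115 (0.109 to 0.121) in ACV and 0.363 (0.342 to 0.385) in laryngeal neurons per 10000. Kcnn3 (SK3) did not share this order, at 0.396 ± 0.689 in ACP, 0.383 ± 0.738 in ACV and 0.503 ± 0.724 in laryngeal neurons, and with Kcnk4 and Kcnj10 it was one of the 3 compared members within 1.5-fold in all comparisons. Kcnn1 (SK1) was at 0.0922 ± 0.436 in ACP, 0.0433 ± 0.124 in ACV and 0.164 ± 0.319 in laryngeal neurons, highest in laryngeal neurons (3.78-fold above ACV). Its ACP mean was 2.13-fold above ACV with 1 neuron holding 63.8% of the ACP sum, and 0.943 times ACV without the highest neurons.

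The sodium-activated subunit Kcnt1 (Slack) was at 0.682 ± 1.04 in ACP, 0.457 ± 0.759 in ACV and 1.19 ± 1.61 in laryngeal neurons. Values started at 0 in every type and went up to 5.07, 3.22 and 7.11, around medians at 0.176, 0.144 and 0.607. Laryngeal neurons were 2.6-fold above ACV. Kcnt2 (Slick) had its highest mean in ACP neurons, at 0.0914 ± 0.176 in ACP, 0.057 ± 0.187 in ACV and 0.0445 ± 0.124 in laryngeal neurons, with ACP 2.05-fold above laryngeal neurons. This ratio was short of 2-fold in 6 of 11 other scalings, means and subsets of neurons and was 0.769 among neurons with at most 50% of counts on Rn45s. Kcnu1 (Slo3), best known from sperm, had reads in 10 of 53 ACP, 24 of 98 ACV and 11 of 52 laryngeal neurons at levels of 0.0395 ± 0.113 in ACP, 0.0713 ± 0.18 in ACV and 0.121 ± 0.375 in laryngeal neurons. Its ratio of 3.07 for laryngeal over ACP neurons went with detected shares of 21.2% and 18.9%, and 1 neuron held 35.8% of the laryngeal sum.

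Inward rectifiers had a higher summed level in ACP neurons than in both other types. Their summed level was 1.88 ± 1.51 in ACP, 0.679 ± 0.767 in ACV and 0.896 ± 0.868 in laryngeal neurons, and ACP stood at 2.77 times ACV and 2.1 times laryngeal neurons. Of 7 compared Kcnj members, 4 were at least 2-fold higher in ACP than in ACV (against 6.92% of all compared genes). A further count gave 3 higher in ACP than in laryngeal neurons (against 7.32%) and 3 higher in laryngeal than in ACV neurons (against 11.4%). Kcnj12 (Kir2.2), a strong rectifier of the resting membrane, was at 0.906 ± 0.892 in ACP, 0.152 ± 0.307 in ACV and 0.171 ± 0.341 in laryngeal neurons. From a lowest value of 0 in each type, the single neurons reached 3.75, 1.8 and 2.03 in the same order, with medians at 0.778, 0.0105 and 0.0338. It was detected in 49 of 53 ACP neurons (92.5%, 81.8 to 97.9), 52 of 98 ACV neurons (53.1%, 42.7 to 63.2) and 30 of 52 laryngeal neurons (57.7%, 43.2 to 71.3). After thinning the expected shares were 84.5%, 40.1% and 52.2%. The ACP mean was 5.97 times the ACV and 5.29 times the laryngeal mean, ACV and laryngeal neurons differed by 1.13-fold, and the ACP neuron was the higher in 83.2% of pairs with an ACV neuron. The summed reads gave 0.888 (0.865 to 0.912) in ACP, 0.141 (0.135 to 0.148) in ACV and 0.205 (0.19 to 0.222) in laryngeal neurons per 10000. Kcnj12 too is listed by the study as enriched in ACP from these same neurons, and its direction is no independent evidence. The study marks it as well as not expressed in laryngeal neurons, of which 30 of 52 had a read here.

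The G-protein-gated rectifiers, which acetylcholine and other transmitters open through their receptors, did not follow one pattern. Kcnj3 (GIRK1) was at 0.211 ± 0.338 in ACP, 0.0538 ± 0.158 in ACV and 0.214 ± 0.446 in laryngeal neurons. Medians stood at 0.0273, 0 and 0.0348, and the values of single neurons ran from 0 to 1.43, 0.968 and 2.03. ACP (3.92-fold) and laryngeal neurons (3.97-fold) were both above ACV, and ACP stood at 0.986 times the laryngeal mean. Kcnj9 (GIRK3) was at 0.169 ± 0.402 in ACP, 0.0903 ± 0.276 in ACV and 0.0701 ± 0.292 in laryngeal neurons. Single neurons ranged from 0 to 1.85 (ACP), 1.95 (ACV) and 1.96 (laryngeal), and the medians lay at 0 in all 3 types. It was 2.42-fold higher in ACP than in laryngeal neurons, with 1 neuron holding 53.8% of the laryngeal sum. Kcnj6 (GIRK2) did not meet the filter, with reads in 10 of 53 ACP, 14 of 98 ACV and 6 of 52 laryngeal neurons, and Kcnj5 (GIRK4) had reads in 1 of 53 ACP, 1 of 98 ACV and 1 of 52 laryngeal neurons. Kcnj14 (Kir2.4), known from cranial motor nuclei, was at 0.109 ± 0.36 in ACP, 0.0353 ± 0.112 in ACV and 0.0822 ± 0.22 in laryngeal neurons and was 3.08-fold (ACP) and 2.33-fold (laryngeal) above ACV. One neuron held 38.4% of its ACP sum, and the ratios fell short of 2-fold among neurons with at most 50% of counts on Rn45s (1.53 for ACP over ACV) and, for laryngeal over ACV, with Rn45s in the totals (1.72) and from summed counts (1.96). Kcnj11 (Kir6.2), the pore of the ATP-sensitive channel, was at 0.112 ± 0.411 in ACP, 0.0565 ± 0.187 in ACV and 0.131 ± 0.344 in laryngeal neurons, 2.32-fold higher in laryngeal than in ACV neurons and 1.98-fold higher in ACP, just short of the limit.

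Of the two-pore leak subunits, 5 of 14 met the filter, and none passed 2-fold between ACP and either other type. Over all compared genes, 6.92% were higher in ACP than in ACV and 4.89% the other way. Against laryngeal neurons, 7.32% were higher in ACP and 9.04% lower. With shares this small, 0 of 5 does not set the subfamily apart. Kcnk3 (TASK-1), an acid-sensitive leak of brainstem motor neurons, was at 0.838 ± 0.967 in ACP, 0.511 ± 0.577 in ACV and 1.32 ± 1.28 in laryngeal neurons. The highest neuron reached 5.85 in ACP, 2.61 in ACV and 5.63 in laryngeal neurons, the lowest was at 0 in each, and the medians were at 0.671, 0.324 and 1.04. Its laryngeal mean was 2.59-fold above ACV, with reads in 46 of 53 ACP, 80 of 98 ACV and 47 of 52 laryngeal neurons. Kcnk10 (TREK-2) was at 0.254 ± 0.412 in ACP, 0.162 ± 0.273 in ACV and 0.35 ± 0.87 in laryngeal neurons, 2.16-fold higher in laryngeal than in ACV neurons, and 1.76-fold without the highest neurons. Kcnk4 (TRAAK) was nearly even, at 0.431 ± 0.546 in ACP, 0.325 ± 0.596 in ACV and 0.319 ± 0.474 in laryngeal neurons. Kcnk1 (TWIK-1) at 0.46 ± 0.775 in ACP, 0.249 ± 0.365 in ACV and 0.47 ± 1.13 in laryngeal neurons and Kcnk2 (TREK-1) at 0.114 ± 0.472 in ACP, 0.16 ± 0.281 in ACV and 0.0978 ± 0.18 in laryngeal neurons stayed within 2-fold. Kcne1l, the leading Kcne gene, was at 0.23 ± 0.493 in ACP, 0.279 ± 0.695 in ACV and 0.349 ± 0.63 in laryngeal neurons, also within 2-fold.

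Members known from glia or vessels were read beside the markers of those cells. Kcnj10 (Kir4.1), the astrocyte rectifier, was at 0.0777 ± 0.2 in ACP, 0.0786 ± 0.237 in ACV and 0.0947 ± 0.29 in laryngeal neurons. Kcnj16 (Kir5.1), its partner, was at 0.181 ± 0.638 in ACP, 0.0724 ± 0.269 in ACV and 0.0677 ± 0.269 in laryngeal neurons. Values started at 0 in every type and went up to 4.34, 2.09 and 1.39, around medians at 0 in all 3 types. The ACP mean was 2.5 times that of ACV and 2.67 times that of laryngeal neurons. One neuron held 45.2% of its ACP sum, and among neurons with at most 900 Apoe counts the ratio of ACP over laryngeal neurons was 0.869. The 7 astrocyte markers summed to 12.8 ± 8.91 in ACP (0.145 to 43), 13.9 ± 9.06 in ACV (0.250 to 61.1) and 18 ± 6.9 in laryngeal neurons (2.69 to 36.7). None of them was at 0 in a type, and Aldoc, which neurons also express, made up 9.69, 9.83 and 15.7 of these sums. Over the neurons of a type, Spearman rho of Kcnj16 with the astrocyte sum was 0.315 in ACP, 0.256 in ACV and 0.299 in laryngeal neurons. For Kcnj10 it was 0.219, 0.355 and -0.167 in the same order. These values are descriptions over neurons, and the part of glial RNA in the level of Kcnj16 was not tested. Kcnk13 (THIK-1), known from microglia, had reads in 14 of 53 ACP, 14 of 98 ACV and 10 of 52 laryngeal neurons at levels of 0.161 ± 0.43 in ACP, 0.0335 ± 0.135 in ACV and 0.146 ± 0.39 in laryngeal neurons. The 6 microglial markers summed to 0.686 ± 1.29 in ACP, 3.48 ± 9.75 in ACV and 1.90 ± 4.02 in laryngeal neurons. Their medians were 0.103, 0.193 and 0.186. The part of microglial RNA in the level of Kcnk13 was not tested. Kcnj8, a pericyte gene, had reads in 2 of 53 ACP, 5 of 98 ACV and 3 of 52 laryngeal neurons. Kcnn4 had reads in 2 of 52 laryngeal neurons and none in 53 ACP neurons (which allows a share of neurons with a read of up to 5.66%, taken as 3 neurons of the total) or in 98 ACV neurons (up to 3.06%).

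Kcnj12, Kcnn2 and Kcnd2 had mean levels at least 2-fold higher in ACP than in ACV, with overlapping ranges. For pairs of them, the number of neurons with reads of both was set beside the product of their single detected shares. In ACP nearly every neuron had reads of each, so that there the numbers could hardly differ. Kcnj12 and Kcnn2 had reads together in 47 of 53 ACP, 34 of 98 ACV and 27 of 52 laryngeal neurons, where the shares alone give 46.2, 31.3 and 25.4. Kcnn2 and Kcnd2 were found together in 46 of 53 ACP, 40 of 98 ACV and 39 of 52 laryngeal neurons, where the shares give 46.2, 39.1 and 38.1. Kcnj12 and Kcnd2 were found together in 45, 38 and 29 neurons in the same order, where the shares give 45.3, 34.5 and 26. Within each type the levels of members detected in at least 50% of its neurons were weakly related. The median Spearman rho was 0.0986 over 378 pairs of 28 members in ACP, 0.0833 over 276 pairs of 24 in ACV and 0.157 over 435 pairs of 30 in laryngeal neurons, where all points share depth and library. The most closely related pairs were Kcnk1 with Kcnn3 in ACV (0.428) and Kcnc1 with Kcnma1 in laryngeal neurons (0.607). The summed member level went with fewer counts outside Rn45s in ACP (rho -0.35, n = 53) and ACV (rho -0.44, n = 98) and not in laryngeal neurons (rho -0.04, n = 52), as a description over neurons.

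Of the 54 compared members, 18 stayed within 2-fold in all 3 comparisons, and their summed level was nearly the same in ACP (6.05 ± 3.15) and ACV (6.05 ± 2.96) and 7.74 ± 4.49 in laryngeal neurons. They were chosen by these ratios, so that the sums describe them only. Of 15 genes of channel partners (scaffolds, accessory subunits and ligands), 10 met the filter. Amigo1, an accessory protein of Kv2 channels, was 2.24-fold higher in ACP than in ACV and 2.14-fold higher than in laryngeal neurons, and Lgi1, a secreted protein of Kv1 complexes, was 2.55-fold higher in ACP than in ACV and 2.22-fold higher in laryngeal than in ACV neurons. Dpp10, an accessory protein of Kv4, was 3.42-fold (ACP) and 2.31-fold (ACV) above laryngeal neurons. Cntn2, which holds Kv1 channels beside the node of Ranvier, was 2.63-fold and 2.09-fold higher in laryngeal than in ACP and ACV neurons, and Lgi3 was 2.51-fold higher in laryngeal than in ACV neurons. None of the 10 compared partners was 2-fold higher in ACV than in ACP neurons, against 4.89% of all compared genes. With a share this small, their absence among 10 genes does not set the partners apart.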

How the data were processed

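Whole neurons were profiled with Smart-seq2 by the authors, who aligned reads to mm10 with STAR 2.6.1d, by their stated limits left out neurons under 500000 aligned reads or over 1800 Apoe counts, and deposited raw counts per gene for each neuron together with the type of each neuron. Strand use in counting was not given in the sources used here. A second deposited table, named as CPM, was not used because its values divide counts by the totals of other neurons. From the deposited counts, levels were computed in Python 3.11.15 (numpy 2.4.6, pandas 2.3.3, scipy 1.17.1) as reads per 10000 outside Rn45s. Members and all other genes passed the same filter (mean of the 3 detected shares at least 20%) and the same size of 2-fold, and a type with under 3 counts of a gene was set to 3 counts over its summed total. No p-value was made. Total counts ran from 542162 to 3292763 per neuron.

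Alternatives were totals with Rn45s, edgeR 4.0.16 TMM library sizes and DESeq2 1.42.0 size factors (used for scaling only), other means, filters and fold sizes, and subsets of neurons. The functions were tested on simulated data. Named genes were the members past 2-fold (at most 10 in each direction), the member with the most reads in each subfamily, 5 members the study lists from these neurons, and 5 known from glia or vessels, and the other members named were chosen after their values were seen. The members and lists were chosen with earlier results of these data known. Gene models were those of GENCODE vM21 (GRCm38), to which 95 of 95 members matched. Values of a few members and 1 pore window are not reported here, and counts and sums over the members include them.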

Additional observations from a re-analysis of the deposited data

How the results depend on the processing

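TMM library sizes, DESeq2 size factors, summed counts over summed totals and neurons with at least 200000 counts outside Rn45s changed no count of members by more than 1.5 times and no direction of a summed level. Totals with Rn45s gave 13 members higher in ACP than in Larynx and 3 the other way, 7 higher in ACV than in Larynx and 13 the other way, and a summed level of ACP over Larynx of 1.08. Without the highest neuron of each type, 4 members were higher in ACV than in ACP and 4 in ACV than in Larynx. The mean of ln values and neurons with at least 1000000 counts each left 1 member higher in ACV than in Larynx. Neurons with at most 900 Apoe counts gave 4 and 4 members higher in ACV than in ACP and in Larynx, and those with at most 1800 gave 2 in ACV over ACP. Neurons with at most 50% of counts on Rn45s, among them 15 laryngeal neurons, gave 1 (ACV over ACP), 14 (Larynx over ACP) and 5 (ACV over Larynx). Shares over all genes and the numbers of members compared are not set beside the counts of these settings here. The counts therefore describe the members only, and a change from the main counts cannot be read as a change particular to the channels. Without a filter on detection the counts were 25 (ACP over ACV), 10 (ACV over ACP), 15 (ACP over Larynx), 27 (Larynx over ACP), 10 (ACV over Larynx) and 44 (Larynx over ACV) of 88 members, against 14.7%, 14.7%, 13.4%, 27.8%, 13.9% and 27.4% of 19536 genes. With detection of at least 50% they were 5, 0, 2, 5, 0 and 15 of 27, in the same order (3.82%, 1.84%, 4.2%, 4.98%, 3.66% and 7.56% of 7729 genes). At 1.5-fold they were 25, 6, 9, 22, 7 and 34 of 54 (15.9%, 11.7%, 16.8%, 19.1%, 16.9% and 22.4% of genes), and at 3-fold 8, 0, 3, 3, 1 and 10 (2.8%, 1.76%, 2.65%, 3.06%, 2.38% and 4.35%). The limits to Apoe of 1800 and to Rn45s of 50% were chosen after seeing the data, and causes were not tested.

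Of 57 ratios past 2-fold, 29 stayed past it under all 11 scalings, means and subsets of neurons, among them all those of Kcna1, Kcna4, Kcna5, Kcnab1, Kcnd2, Kcnh5, Kcnip3, Kcnj3, Kcnj9 and Kcnj12. Those short of 2-fold in at least 5 of the 11 included Kcna3 (Larynx over ACP, 6), Kcnh6 (Larynx over ACV, 5), Kcnh7 (Larynx over ACV, 5), Kcnk10 (Larynx over ACV, 9), Kcnn1 (ACP over ACV, 7), Kcnt2 (ACP over Larynx, 6) and Kcnv1 (ACV over Larynx, 5). Direction turned for Kcnh7 (Larynx over ACV) with Rn45s in the totals (0.960), without the highest neurons (0.766) and at most 50% of counts on Rn45s (0.712), for Kcnn1 (ACP over ACV) without the highest neurons (0.943) and at most 1800 Apoe counts (0.609), for Kcnj16 (ACP over Larynx) at most 900 Apoe counts (0.869), and for Kcnt2 (ACP over Larynx) at most 50% of counts on Rn45s (0.769). No paired analysis was possible because no neuron carries the number of an animal or replicate shared between types.

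The limits are those of 1 sample per type, of types taken partly from these counts, and of depth: laryngeal neurons held about 50% of the counts outside Rn45s of the others, and no read in 52 neurons allows a share of neurons with a read of up to 5.77%, which does not cover expression missed at this depth. After thinning, members detected in at least 50% of neurons went from 28 to 25 in ACP, from 24 to 17 in ACV and from 30 to 25 in laryngeal neurons.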

Other observations

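Some members below the filter on detection were read in few neurons, with unequal shares or sums between types. They were picked after their values were seen, and no difference was tested. Kcnk9 (TASK-3), an acid-sensitive leak subunit related to Kcnk3, had 208 reads in 11 of 52 laryngeal neurons (21.2%, exact 95% interval 11.1 to 34.7), 6 reads in 1 of 53 ACP neurons and 1 read in 1 of 98 ACV neurons. Kcns3, a silent Kv2 partner, had reads in 6 of 53 ACP and 5 of 52 laryngeal neurons (summed reads of 0.0286 and 0.0373 per 10000) and none in 98 ACV neurons, which allows a share of neurons with a read of up to 3.06% (3 neurons of the total). Kcnf1 had reads in 12 of 53 ACP, 9 of 98 ACV and 8 of 52 laryngeal neurons (summed reads of 0.083, 0.00415 and 0.0481 per 10000). Kcnk12 had 358 reads in 16 of 53 ACP, 94 reads in 11 of 98 ACV and 216 reads in 9 of 52 laryngeal neurons. These reads are not scaled by the totals, which differ between types. By mean level, ACP stood at 7.34 times ACV and 0.972 times laryngeal neurons.

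Many members were read in only part of a type. The median level was 0 for 26 of the 54 compared members in ACP, 30 in ACV and 24 in laryngeal neurons, and 1 neuron held at least 40% of the summed level of a type for 7 members in ACP, 1 in ACV and 4 in laryngeal neurons.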
